A study of Mus musculus with 24 samples.

Results

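Wnt signalling is described here through 47 genes in P19, a line of mouse embryonal carcinoma cells that differentiates when given retinoids: the Wnt ligands, the acyltransferase Porcn, the Frizzled and Lrp receptors, secreted antagonists, and Axin2 with the Tcf and Lef factors. They were chosen by symbol. A gene was measured by a probe set annotated to that symbol alone, taking the one with the highest mean where a gene had several, and 46 of the 47 had such a probe set, out of 19938 genes on the array; Tcf7 had none. Cells grown as a monolayer on gelatine were treated with ATRA (all-trans retinoic acid) at 1 µM, BMS753 (specific for RARα) at 1 µM, BMS961 (for RARγ) at 0.1 µM or BMS641 (for RARβ) at 0.1 µM, and 1 array was hybridised for each agent at 2, 6, 24, 48 and 72 h. The controls were 4 arrays of cells given ethanol (EtOH), which carry no time label. RAR stands for retinoic acid receptor. The labels do not say whether the arrays come from separate cultures. The p-values therefore measure the spread between these arrays, which may be technical and, for the agents, also includes change with time.

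Wnt proteins are secreted signals that need a fatty acid, attached by Porcn, to leave the cell and bind. They bind Frizzled receptors (Fzd) together with Lrp5 or Lrp6, which protects β-catenin from destruction, and β-catenin then acts with Tcf and Lef factors on target genes such as Axin2, itself an inhibitor of the pathway. Secreted proteins of the Sfrp family, Frzb and Wif1 bind Wnts, and some Dkk proteins, Dkk1 among them, bind Lrp receptors. Wnt signals act in keeping embryonic stem cells undifferentiated and in patterning the neural tube and the primitive streak.

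Values are log2 intensities minus the mean of the 4 EtOH arrays, so that 1 is 2-fold. The 2 and 6 h arrays of an agent form its early phase (n = 2) and the 24, 48 and 72 h arrays its late phase (n = 3), against n = 4 EtOH arrays. Changes were fitted with limma over all 19938 genes and called where the adjusted p (Benjamini-Hochberg) was under 0.05. Errors are standard errors (SE) of the fit. The times of a phase served as the repeats of an agent, with time terms shared by the 4 agents. One spread per gene was estimated from all 24 arrays and served every comparison. The SE and p-values thus include how the courses over time of all 4 agents differ, and are not a measure of replicate noise alone. The median change over all genes on any array lay between −0.013 and 0.051. All comparisons with EtOH share the same 4 EtOH arrays, on which the SD of a Wnt gene ranged between 0.023 and 0.199. Mean EtOH levels of the Wnt genes ran between 4.646 and 10.645. For 28 of them this level lay under 7.161, the median of the means of all genes, and so it did for 17 of the 19 ligands. For genes this dim, the lack of a call does not show that expression was unchanged.

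Markers of embryonal carcinoma cells and of other cell types moved in the same arrays. Over 10 pluripotency genes the mean log2 level was 6.75 to 9.5 with ATRA late and 8.13 to 10.1 with BMS753 late, against 10.01 to 10.1 with EtOH, and 7 and 2 of the 10 were called lower. Over 6 neural progenitor markers it was 8.01 to 9.14 with ATRA late and 7.41 to 9.36 with BMS753 late, against 7.08 to 7.14 with EtOH, and 3 and 4 were called higher. Over 6 neuron markers the list mean ranged between 7.53 and 9.84 with ATRA late and between 7.72 and 7.97 with BMS753 late, against 7.83 to 7.95 with EtOH, and 2 and 0 were called higher. Over 6 endoderm markers it was 6.98 to 7.71 and 6.63 to 7.36 with the same agents, against 6.39 to 6.46 with EtOH, and 4 and 2 were called higher. Over 6 fibroblast and smooth muscle markers it was 7.21 to 9.35 and 7.21 to 8.36, against 7.12 to 7.18 with EtOH, and 5 and 0 were called higher. Of 5 measured blood and endothelium markers 2 and 0 were called, with list means of 5.78 to 6.1 for ATRA late and 5.76 to 5.92 for BMS753 late, against 5.72 to 5.78 for EtOH. Of all genes, 17.9% were called higher and 19% lower with ATRA late, and 6.52% and 6.94% with BMS753 late. The 2 agents thus differ in how many genes are called beyond these lists. The marker shifts run beside the Wnt changes below, and their part in them was not tested. In bulk RNA, fewer cells of a type and less RNA per cell cannot be told apart.

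In the 24 to 72 h phase, Wnt genes of every role had members that changed. With ATRA, 14 of 46 rose and 6 fell, which is 30.4% and 13.0% beside 17.9% and 19% of all genes. With BMS753, 13 rose and 3 fell, which is 28.3% and 6.52% beside 6.52% and 6.94% of all genes. The median late change of the 46 genes was 0.17 with ATRA and 0.05 with BMS753, where the medians of all genes were 0.025 and −0.006. Of the 46 genes, 8 rose under both agents, 3 fell under both, 6 rose and 3 fell with ATRA alone called, 5 rose with BMS753 alone called, and 21 were called under neither. In either direction, 36.9% of all genes were called with ATRA and 13.5% with BMS753. The same split over all genes is not given here, so this one cannot be read as particular to the Wnt genes. The number at 2-fold or more from EtOH grew with time under ATRA: 0 at 2 h, 2 at 6 h, 3 at 24 h, 9 at 48 h and 11 at 72 h, beside 0.186%, 0.717%, 2.1%, 6.42% and 9.58% of all genes. Under BMS753 it was 0, 1, 1, 10 and 15 at the same times, beside 0.0652%, 0.251%, 0.492%, 3.13% and 5.83%. At least 1 array stood 2-fold or more from EtOH for 22 genes, or 47.8%, as for 12.7% of all genes, while 24 never reached 2-fold.

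**Figure D1:**
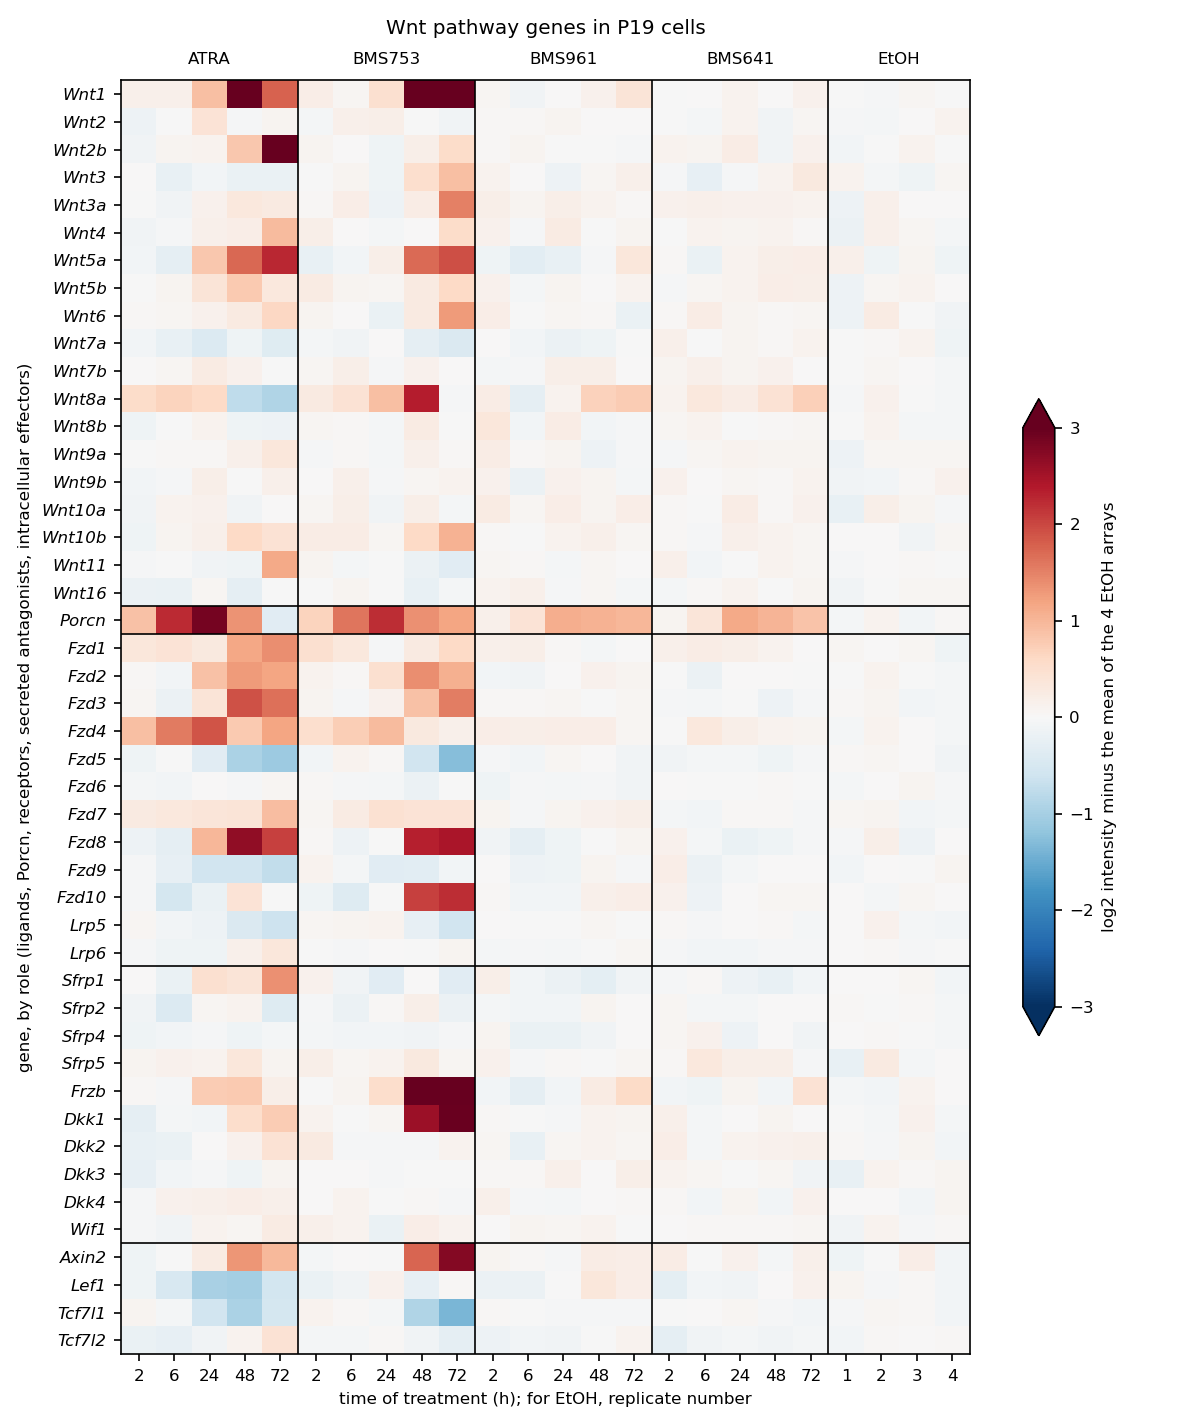
Log2 intensity minus the EtOH mean for the 46 measured Wnt genes (rows, by role) on the 24 arrays (columns, by agent and time in h, then the 4 EtOH replicates). Colour runs between −3 (blue) and 3 (red). Most of the strongest colour lies in the ATRA and BMS753 columns at 48 and 72 h. Porcn is red under all 4 agents, most so at 24 h, and pale blue at 72 h of ATRA.

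Of the 19 ligands, late, 6 rose and 1 fell with ATRA (31.6% and 5.26%, beside 17.9% and 19% of all genes). With BMS753, 4 rose and 0 fell (21.1% and 0%, beside 6.52% and 6.94%). Wnt1, which patterns the midbrain and dorsal neural tube, stood at 0.14, 0.16, 0.90, 3.50 and 1.77 at 2, 6, 24, 48 and 72 h of ATRA, and at 0.21, 0.06, 0.49, 4.18 and 4.63 with BMS753, against −0.029 to 0.052 on EtOH arrays. At 72 h the ATRA array was thus 2.85 below the BMS753 array, whereas at 24 h it was 0.41 above it. Wnt1 rose late by 2.06 ± 0.56 with ATRA (limma adjusted p = 0.00932) and by 3.10 ± 0.56 with BMS753 (adjusted p = 0.00227). Their late difference was −1.04 (95% interval −2.32 to 0.23, adjusted p = 0.259), and with the 48 h arrays left out the ATRA change was 1.34 and no longer called.

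Wnt5a, a ligand known mainly for signalling without β-catenin, rose under both agents. It stood at −0.07, −0.27, 0.82, 1.73 and 2.25 with ATRA over the 5 times and at −0.21, −0.07, 0.18, 1.69 and 1.94 with BMS753, against −0.126 to 0.152 with EtOH. Both agents were above all EtOH arrays at 24, 48 and 72 h, ATRA by more at 24 h. The late rise was 1.60 ± 0.22 with ATRA (adjusted p = 7.61e-05) and 1.27 ± 0.22 with BMS753 (adjusted p = 0.0016), and the late difference was 0.33 (95% interval −0.17 to 0.82).

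Wnt2b stood at −0.10, 0.07, 0.12, 0.82 and 3.14 with ATRA over the 5 times and at 0.09, 0.02, −0.12, 0.19 and 0.56 with BMS753, against −0.079 to 0.097 with EtOH. A single array, ATRA at 72 h, held most of this. The ATRA rise was 1.36 ± 0.37 (adjusted p = 0.00934), and 0.47 without the 72 h arrays, while the difference of 1.15 from BMS753 was not called (adjusted p = 0.0732). Wnt11, called in no comparison, stood at −0.03, −0.02, −0.10, −0.13 and 1.15 with ATRA and at 0.08, −0.05, −0.01, −0.17 and −0.33 with BMS753, against −0.027 to 0.028 with EtOH, and so passed 2-fold on the same array alone.

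For 3 ligands the single array past 2-fold was BMS753 at 72 h. Wnt3a, not called, stood at −0.01, −0.09, 0.13, 0.31 and 0.26 with ATRA and at 0.03, 0.20, −0.15, 0.22 and 1.51 with BMS753, against −0.163 to 0.151 with EtOH. Wnt6, not called, stood at 0.03, 0.06, 0.13, 0.27 and 0.63 with ATRA and at 0.09, 0.00, −0.20, 0.26 and 1.28 with BMS753, against −0.151 to 0.257 with EtOH. Wnt10b stood at −0.12, 0.08, 0.15, 0.59 and 0.43 with ATRA and at 0.22, 0.23, 0.05, 0.60 and 1.04 with BMS753, against −0.094 to 0.067 with EtOH. All 3 were higher with BMS753 than with ATRA at 72 h.

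Wnt8a, a ligand of the primitive streak, lay on opposite sides of EtOH at 48 h. It stood at 0.55, 0.67, 0.59, −0.75 and −0.91 with ATRA and at 0.27, 0.44, 0.91, 2.35 and −0.03 with BMS753, against −0.065 to 0.118 with EtOH. The 48 h arrays lay furthest apart. Its late difference was −1.44 ± 0.43 (adjusted p = 0.0466), and the call was lost without any 1 of the EtOH arrays or without the 48 h arrays (−0.61). Wnt3, a ligand needed for gastrulation, stood at 0.02, −0.21, −0.08, −0.19 and −0.21 with ATRA and at −0.02, 0.09, −0.13, 0.50 and 0.89 with BMS753, against −0.122 to 0.111 with EtOH. BMS753 was above EtOH at 48 and 72 h alone. Wnt3 had a late difference of −0.58 ± 0.14 (adjusted p = 0.0208) that was lost with the 48 h or the 72 h arrays left out (−0.32 without 72 h) and became −0.90 with 24 h left out. Its BMS753 rise of 0.42 (adjusted p = 0.0479) lost its call on leaving out any EtOH array, 48 h or 72 h (0.18), and became 0.70 with 24 h left out.

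The other called ligands changed less than 2-fold. With ATRA late, Wnt5b rose by 0.50 (adjusted p = 0.00337), Wnt4 by 0.44 (adjusted p = 0.0262) and Wnt10b by 0.39 (adjusted p = 0.0362), and Wnt7a fell by 0.30 (adjusted p = 0.0182). With BMS753, Wnt10b rose by 0.57 (adjusted p = 0.0133), a call lost with 48 h or 72 h (0.33) left out. The ATRA call of Wnt4 was lost without EtOH replicate 1 or 4 or the 72 h arrays (0.18), that of Wnt7a without EtOH replicate 3, and that of Wnt10b without any EtOH array or the 48 h arrays. Wnt2, Wnt7b, Wnt8b, Wnt9a, Wnt9b, Wnt10a and Wnt16 were called in no comparison. Wnt8b had the lowest EtOH mean level of the ligands, 4.998.

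Some ligands lie next to each other: Wnt6 with Wnt10a on chromosome 1, Wnt3a with Wnt9a and Wnt9b with Wnt3 on chromosome 11, and Wnt10b with Wnt1 on chromosome 15, with 0 protein-coding genes between the members of a pair in the RefSeq annotation. At 72 h of BMS753 the neighbours stood at unlike values. Wnt3a stood at 1.51 beside Wnt9a at 0.04, and Wnt6 at 1.28 beside Wnt10a at −0.06. Wnt3 stood at 0.89 beside Wnt9b at 0.11, and Wnt1 at 4.63 beside Wnt10b at 1.04. In each pair one gene stood well above its neighbour on that array, and no test was made of this. Wnt1 and Wnt10b were both past 2-fold there, and both were called higher late with ATRA and with BMS753.

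Porcn was the only member past 2-fold under all 4 agents. It stood at 0.89, 2.24, 2.86, 1.34 and −0.34 with ATRA, at 0.67, 1.60, 2.23, 1.36 and 1.19 with BMS753, at 0.16, 0.41, 1.09, 1.05 and 1.00 with BMS961 and at 0.09, 0.36, 1.13, 1.01 and 0.84 with BMS641, against −0.079 to 0.104 with EtOH. Every agent peaked at 24 h, and ATRA at 72 h was the single array below the EtOH range. Late, Porcn rose by 1.29 ± 0.37 with ATRA (adjusted p = 0.0133) and by 1.59 ± 0.37 with BMS753 (adjusted p = 0.0109), with a difference of −0.30 (95% interval −1.15 to 0.55). The ATRA call was lost with 24 h (0.50) or 48 h left out, and the change was 2.10 with 72 h left out. The BMS753 call was lost with 48 h left out.

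The 2 agonists given at 0.1 µM were compared with EtOH and with each other, and not with the 1 µM agents. Their SE and p-values still use the spread shared by all 4 agents. For Porcn this includes the ATRA values of 2.86, 1.34 and −0.34 at 24, 48 and 72 h. BMS961 changed Porcn by 1.05 ± 0.37 and BMS641 by 1.00 ± 0.37, neither called in the fit (adjusted p = 1), and the difference of 0.05 had a 95% interval of −0.80 to 0.90. With the spread taken only from EtOH arrays, the adjusted p was 4.93e-08 for BMS961 and 1.89e-07 for BMS641, a setting that called 2.29% and 0.627% of all genes. Of the 46 genes, limma called 0 late with BMS961 (0.00502% of all genes), 0 with BMS641 (0% of all genes) and 0 between them (0% of all genes), and at an unadjusted p under 0.05 there were 1, 1 and 0, beside 3.86%, 3.13% and 1.8% of all genes. With the EtOH spread alone, 3 and 2 were called with BMS961 and BMS641. Porcn was the only member at 2-fold, at 24 and 48 h with both agents, where the share of all genes was 0.0351% and 0.0401% with BMS961 and 0.0351% and 0.0201% with BMS641. The other 45 members stood between −0.31 (Wnt5a at 6 h of BMS961) and 0.77 (Wnt8a at 72 h of BMS961) on the arrays of these agonists.

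**Figure D2:**
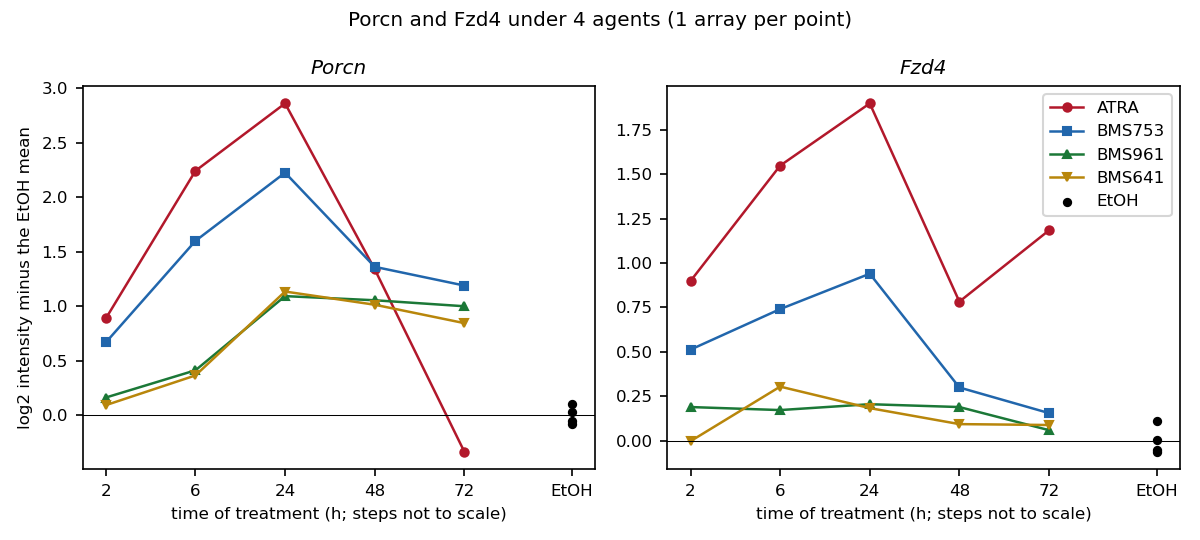
Log2 intensity minus the EtOH mean (vertical axis) of Porcn and Fzd4 by time in h under ATRA, BMS753, BMS961 and BMS641, with the 4 EtOH arrays at the right; each point is 1 array. Porcn peaks at 24 h under all 4 agents and stands below the EtOH arrays at 72 h of ATRA, while Fzd4 passes 1 only with ATRA, at 6, 24 and 72 h.

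Of the 12 receptors, 6 rose and 3 fell with ATRA late (50% and 25%, beside 17.9% and 19% of all genes). With BMS753 late, 5 rose and 2 fell (41.7% and 16.7%, beside 6.52% and 6.94%). Fzd4, a Frizzled of vascular tissue that also binds norrin, was the one already called in the early phase. It stood at 0.90, 1.55, 1.90, 0.78 and 1.18 with ATRA and at 0.51, 0.74, 0.94, 0.30 and 0.16 with BMS753, against −0.061 to 0.113 with EtOH. ATRA was higher at each of the 5 times. Fzd4 rose by 1.22 ± 0.18 early (adjusted p = 0.0021) and 1.29 ± 0.16 late (adjusted p = 3.01e-05) with ATRA, and its late level was 0.82 ± 0.17 above BMS753 (adjusted p = 0.00968). The early call was lost without the 6 h arrays (0.90) and the difference from BMS753 without the 72 h arrays.

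Fzd4 was the 1 member called early with ATRA, 2.17% of the members beside 0.858% of all genes, and 7 had an unadjusted p under 0.05 (7.93% of all genes). With BMS753 limma called 0 early, beside 0.306% of all genes, with 3 at an unadjusted p under 0.05 (10.4% of all genes) and 5 called with the EtOH spread alone (4.55%). Between ATRA and BMS753 early it called 0, beside 0% of all genes, with 3 at an unadjusted p under 0.05 (9.64% of all genes) and 2 called with the EtOH spread alone (0.953%). At 6 h only Fzd4 and Porcn were past 2-fold with ATRA, and only Porcn with BMS753, as counted above. The early change of Porcn was 1.56 with ATRA (limma adjusted p = 0.135) and 1.13 with BMS753 (adjusted p = 0.344). Neither was called, though the first was larger than that of Fzd4. Whether the difference between the agents changed between phases was tested too, and limma called 0 members, beside 0.226% of all genes, with 11 at an unadjusted p under 0.05 (24.4% of all genes).

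Fzd8 rose late under both agents. It stood at −0.16, −0.27, 1.01, 2.65 and 2.05 with ATRA and at 0.04, −0.16, −0.01, 2.34 and 2.46 with BMS753, against −0.147 to 0.176 with EtOH. At 24 h the agents were apart and at 48 and 72 h both were far above EtOH. The rise was 1.90 ± 0.32 with ATRA (adjusted p = 0.000364) and 1.60 ± 0.32 with BMS753 (adjusted p = 0.00455), and the BMS753 value lost its call with 48 h or 72 h left out and was 2.40 with 24 h left out.

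Fzd2 stood at 0.03, −0.07, 0.87, 1.28 and 1.18 with ATRA and at 0.11, 0.03, 0.47, 1.40 and 1.07 with BMS753, against −0.056 to 0.094 with EtOH. It rose by 1.11 ± 0.11 (adjusted p = 6.32e-06) and 0.98 ± 0.11 (adjusted p = 7.9e-05), calls that held under every alternative. Fzd3, which acts in planar polarity and axon guidance, stood at 0.07, −0.19, 0.39, 1.91 and 1.65 with ATRA and at 0.08, −0.04, 0.14, 0.88 and 1.54 with BMS753, against −0.074 to 0.084 with EtOH. Both agents were above EtOH at every late time. Fzd3 rose by 1.32 ± 0.23 (adjusted p = 0.000539) and 0.85 ± 0.23 (adjusted p = 0.0247), the second of which was lost without EtOH replicate 3 or 4, the 48 h arrays or the 72 h arrays (0.51). Fzd7, a Frizzled of undifferentiated cells, rose by 0.56 with ATRA (adjusted p = 0.000384; 0.37 without the 72 h arrays) and by 0.43 with BMS753 (adjusted p = 0.00839).

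Fzd1 and Fzd10 differed between the agents. Fzd1 stood at 0.34, 0.41, 0.30, 1.16 and 1.39 with ATRA and at 0.48, 0.32, −0.04, 0.28 and 0.59 with BMS753, against −0.121 to 0.069 with EtOH. Both agents were above EtOH at 2 and 6 h, and ATRA was higher at all 3 late times. Fzd1 rose late by 0.95 ± 0.16 with ATRA (adjusted p = 0.000348), and the difference of 0.67 ± 0.17 (adjusted p = 0.0237) was lost without the 48 or the 72 h arrays. Fzd10, a Frizzled of the dorsal neural tube, stood at −0.04, −0.54, −0.20, 0.42 and −0.02 with ATRA and at −0.13, −0.40, −0.02, 2.04 and 2.23 with BMS753, against −0.062 to 0.048 with EtOH. The arrays of the 2 agents lay close up to 24 h and far apart at 48 and 72 h. Fzd10 rose by 1.42 ± 0.28 with BMS753 (adjusted p = 0.00437), and ATRA was −1.35 ± 0.30 from it (adjusted p = 0.0144). The BMS753 call was lost without the 48 h arrays, the difference without the 48 or the 72 h arrays, and the BMS753 change was 2.13 without the 24 h arrays.

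Among the receptors that fell, Fzd5 stood at −0.14, −0.01, −0.34, −0.95 and −1.08 with ATRA and at −0.07, 0.10, 0.03, −0.58 and −1.27 with BMS753, against −0.096 to 0.055 with EtOH. Both agents were below EtOH at 48 and 72 h. Fzd5 fell by 0.79 ± 0.16 (adjusted p = 0.00124) and by 0.61 ± 0.16 (adjusted p = 0.019), and the BMS753 call was lost with 48 h or 72 h (−0.27) left out, the value being −0.93 with 24 h left out. Fzd9 stood at −0.04, −0.24, −0.57, −0.58 and −0.74 with ATRA and at 0.10, −0.06, −0.33, −0.31 and −0.09 with BMS753, against −0.092 to 0.075 with EtOH. ATRA was the lower at all 5 times. Fzd9 fell by 0.63 ± 0.07 with ATRA (adjusted p = 2.32e-05) and by 0.24 ± 0.07 with BMS753 (adjusted p = 0.0417), a difference of −0.39 ± 0.08 (adjusted p = 0.0097) that was −0.26 and not called with 72 h left out. The BMS753 call of Fzd9 was lost without EtOH replicate 2, 3 or 4 or the 24 or 48 h arrays. The co-receptor Lrp5 fell by 0.41 with ATRA (adjusted p = 0.00295), while Lrp6 and Fzd6 were not called in any comparison.

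Of the 10 antagonists measured, 1 rose and 0 fell with ATRA late (10% and 0%, beside 17.9% and 19% of all genes). With BMS753 late, 2 rose and 0 fell (20% and 0%, beside 6.52% and 6.94%). Between the agents 3 differed, 1 higher and 2 lower with ATRA (10% and 20%, beside 4.44% and 5.93%). Frzb, which binds Wnts through a Frizzled-like domain, stood at 0.05, −0.04, 0.76, 0.79 and 0.18 with ATRA and at 0.00, 0.09, 0.52, 3.58 and 3.02 with BMS753, against −0.077 to 0.111 with EtOH. Only the BMS753 arrays at 48 and 72 h passed 2-fold. Frzb rose by 2.37 ± 0.41 with BMS753 (adjusted p = 0.00167), with ATRA at 0.58 (adjusted p = 0.3). The difference was −1.80 ± 0.44 (adjusted p = 0.0207), and it was −2.82 with 24 h left out, −1.30 with 48 h and −1.28 with 72 h, not called in the last pair.

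Dkk1, which binds Lrp receptors and is also a β-catenin target, had the same shape. It stood at −0.26, −0.06, −0.07, 0.52 and 0.75 with ATRA and at 0.10, −0.02, 0.06, 2.56 and 2.97 with BMS753, against −0.068 to 0.128 with EtOH. The 48 and 72 h BMS753 arrays were again far above the ATRA ones. Dkk1 rose by 1.86 ± 0.36 with BMS753 (adjusted p = 0.00336), with ATRA at 0.40 (adjusted p = 0.42), and the difference was −1.46 ± 0.38 (adjusted p = 0.0269). The BMS753 call was lost without the 48 h arrays and the difference without the 48 or the 72 h arrays.

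Sfrp1, a Wnt-binding protein, went the other way. It stood at 0.01, −0.20, 0.48, 0.39 and 1.37 with ATRA and at 0.12, −0.11, −0.33, 0.01 and −0.35 with BMS753, against −0.092 to 0.052 with EtOH. ATRA was higher at every late time. Sfrp1 rose by 0.75 ± 0.15 with ATRA (adjusted p = 0.00143), and the difference was 0.97 ± 0.16 (adjusted p = 0.00364); without the 72 h arrays these were 0.44 and 0.60, both still called. Sfrp2, Sfrp4, Sfrp5, Dkk2, Dkk3, Dkk4 and Wif1 were not called in any comparison. Sfrp4 had the lowest EtOH mean level of the antagonists, 4.646.

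Axin2, the feedback inhibitor whose transcript is widely used as a readout of β-catenin signalling, stood at −0.12, −0.01, 0.25, 1.32 and 0.96 with ATRA and at −0.06, 0.00, −0.01, 1.75 and 2.76 with BMS753, against −0.129 to 0.204 with EtOH. Both agents were above EtOH at 48 and 72 h, by most at 72 h of BMS753. Axin2 rose by 1.50 ± 0.33 with BMS753 (adjusted p = 0.0075), with ATRA at 0.84 (adjusted p = 0.0558) and a difference of −0.66 (95% interval −1.40 to 0.09, adjusted p = 0.226). The BMS753 call was lost with 48 h or 72 h (0.87) left out, and the change was 2.25 with 24 h left out.

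Lef1, a factor that binds DNA with β-catenin, stood at −0.12, −0.47, −0.96, −1.01 and −0.56 with ATRA and at −0.19, −0.10, 0.12, −0.24 and 0.03 with BMS753, against −0.083 to 0.085 with EtOH. ATRA was lower at 6, 24, 48 and 72 h. Lef1 fell by 0.85 ± 0.12 with ATRA (adjusted p = 7.66e-05), and its difference from BMS753 was −0.81 ± 0.12 (adjusted p = 0.00214). Tcf7l1, a Tcf that acts mainly as a repressor in pluripotent cells, stood at 0.09, −0.06, −0.57, −0.96 and −0.52 with ATRA and at 0.11, 0.03, −0.06, −0.90 and −1.38 with BMS753, against −0.071 to 0.067 with EtOH. Both agents were below EtOH at 48 and 72 h. Tcf7l1 fell by 0.68 ± 0.17 with ATRA (adjusted p = 0.00537) and by 0.78 ± 0.17 with BMS753 (adjusted p = 0.0072), calls lost without the 48 h arrays, and the BMS753 value was −0.48 without the 72 h arrays. Tcf7l2 was not called.

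**Figure D3:**
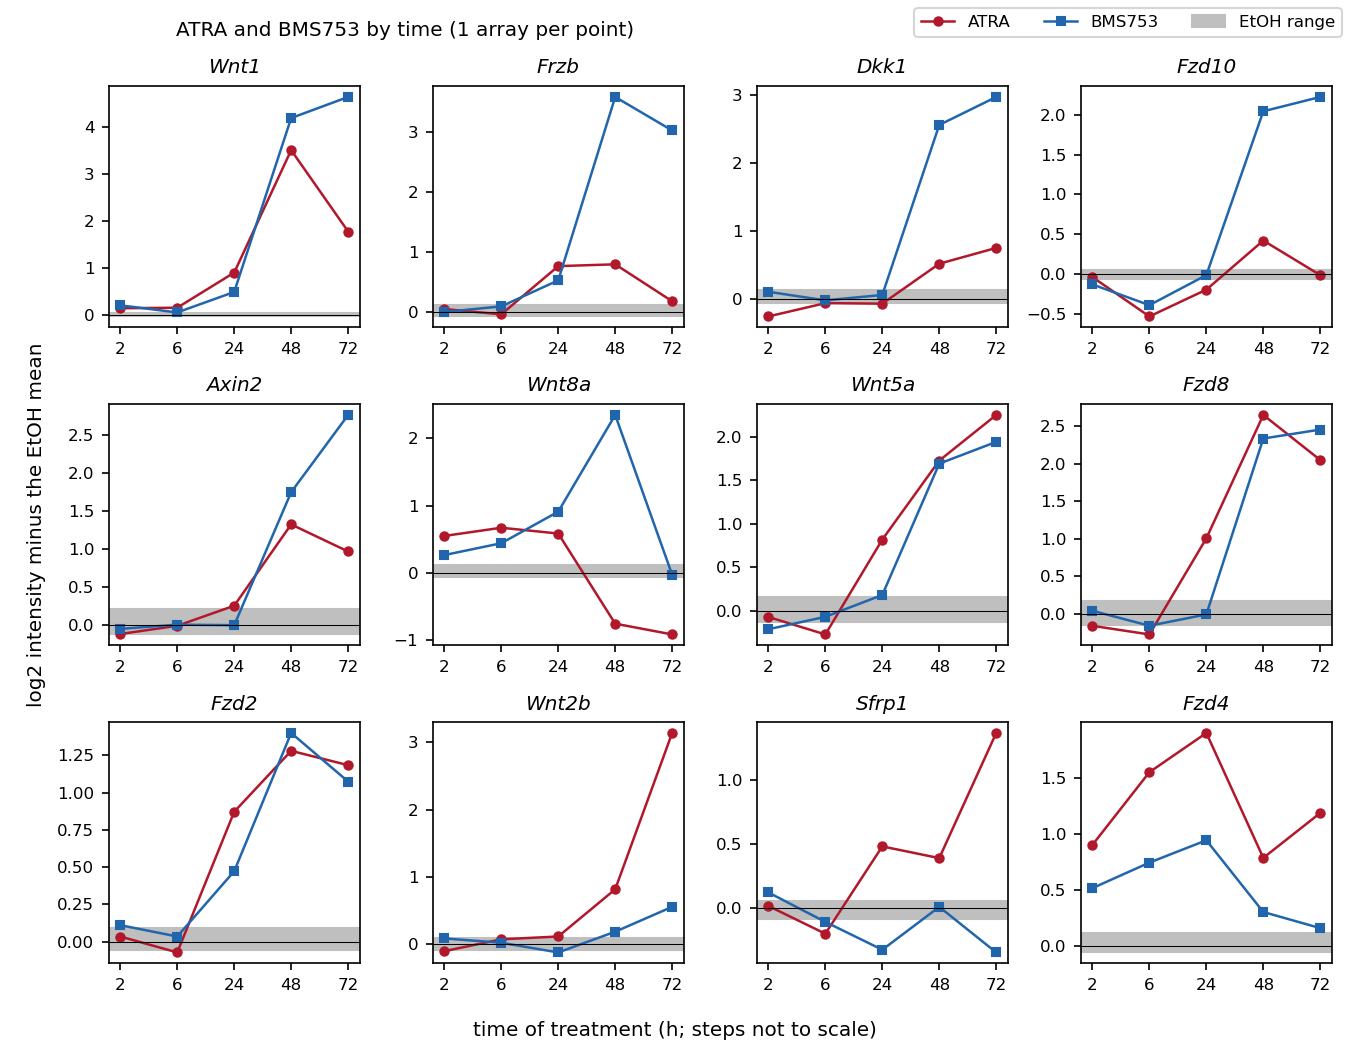
Log2 intensity minus the EtOH mean (vertical axis) by time in h for 12 of the genes under ATRA (circles) and BMS753 (squares), 1 array per point, with the range of the 4 EtOH arrays in grey. Frzb, Dkk1 and Fzd10 separate the agents at 48 and 72 h with BMS753 above, Wnt2b, Sfrp1 and Fzd4 with ATRA above at 72 h, and Wnt5a, Fzd8 and Fzd2 stand above EtOH with both at 48 and 72 h, Fzd8 being 1.01 higher with ATRA at 24 h.

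Set side by side, ATRA and BMS753 differed by call in the late phase alone. A change of their difference between phases was called for 0 members. Late, 3 of 46 genes were called higher with ATRA than with BMS753 (Fzd1, Fzd4 and Sfrp1) and 7 lower (Wnt3, Wnt8a, Fzd9, Fzd10, Frzb, Dkk1 and Lef1). This is 6.52% and 15.2% beside 4.44% and 5.93% of all genes. By time, 0 members differed 2-fold at 2 h and 0 at 6 h, where 0.00502% and 0.105% of all genes did. At 24 h there were 2, Fzd8 higher and Lef1 lower with ATRA, beside 0.893% of all genes. At 48 h there were 5, Fzd3 higher and Wnt8a, Fzd10, Frzb and Dkk1 lower, beside 3.01%. At 72 h there were 12, beside 4.47%: Wnt2b, Wnt11, Fzd4 and Sfrp1 higher with ATRA, and Wnt1, Wnt3, Wnt3a, Fzd10, Frzb, Dkk1, Porcn and Axin2 lower. These counts compare single arrays and carry no test. All 10 calls were lost when only the ATRA and BMS753 arrays were fitted, a fit with few residual degrees of freedom. With its time terms, that fit pairs the 2 agents by time.

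**Figure D4:**
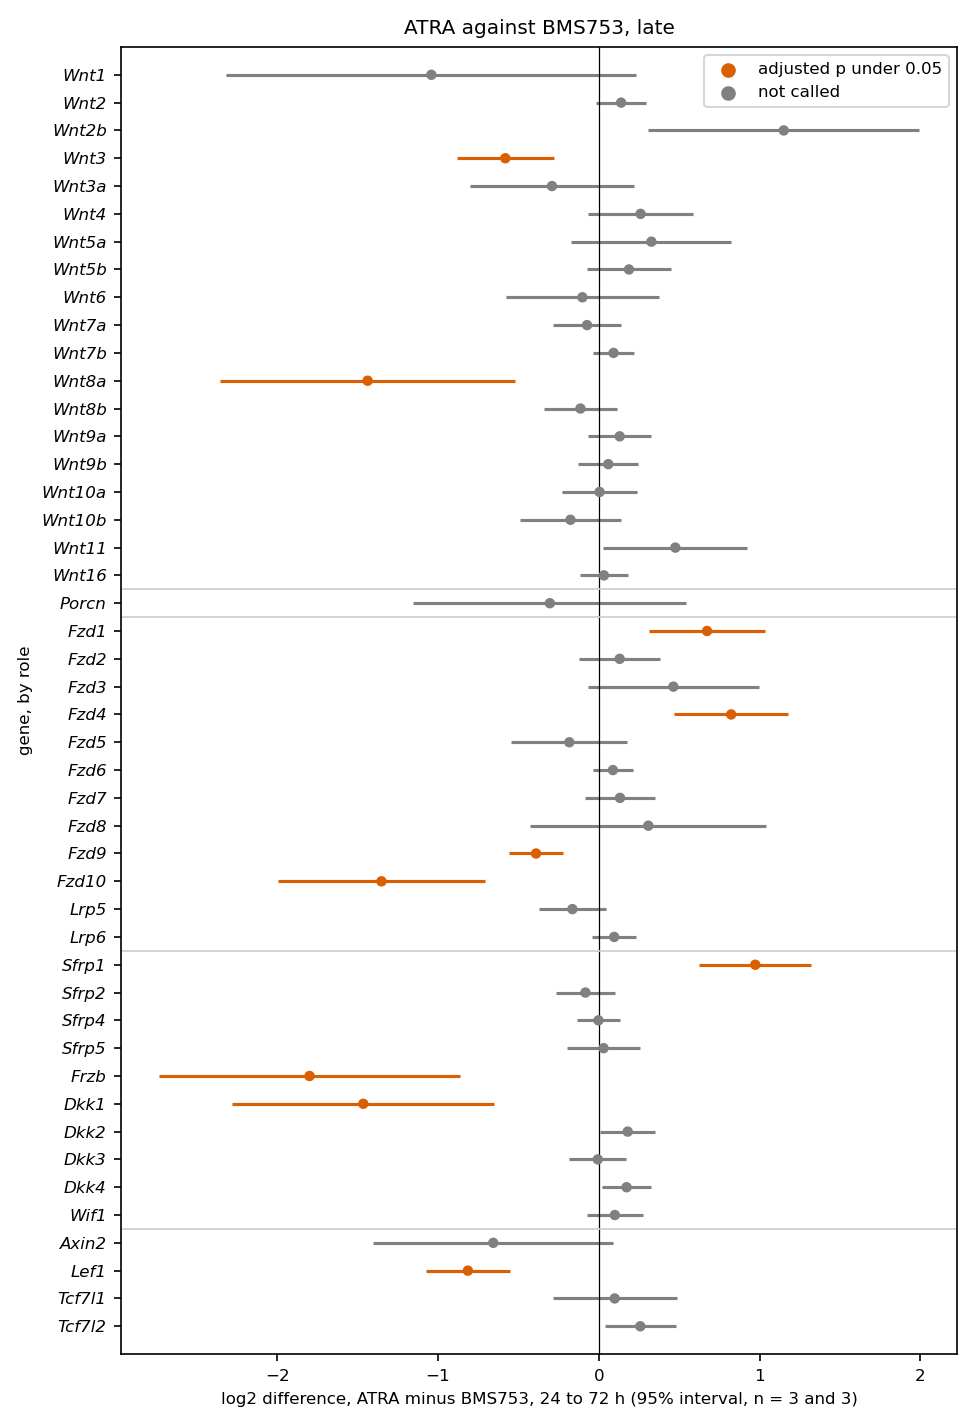
Late log2 difference, ATRA minus BMS753, with its 95% interval (horizontal axis, n = 3 and 3) for each of the 46 genes by role; the 10 called genes are orange. Frzb, Dkk1, Wnt8a and Fzd10 lie furthest below 0 among the called genes, and Sfrp1, Fzd4 and Fzd1 above it.

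The promoters of Frzb, Dkk1, Fzd10, Wnt1 and Axin2 are shown because these genes stood at least 2-fold above EtOH at both 48 and 72 h of BMS753, and lower with ATRA at 72 h. Each is the 250 bases before a transcript start, 5′ to 3′ on the gene's strand, from RefSeq (GRCm38.p6). For Axin2 that start lies inside the annotated gene, downstream of its outermost start, whose own promoter was not searched; for the other 4 genes it is the outermost start. Fzd8 and Porcn met the same description, and no promoter of theirs was searched. Capitals mark a retinoic acid receptor motif or a Tcf and Lef motif.
Frzb (chr2:80447397-80447646, minus strand): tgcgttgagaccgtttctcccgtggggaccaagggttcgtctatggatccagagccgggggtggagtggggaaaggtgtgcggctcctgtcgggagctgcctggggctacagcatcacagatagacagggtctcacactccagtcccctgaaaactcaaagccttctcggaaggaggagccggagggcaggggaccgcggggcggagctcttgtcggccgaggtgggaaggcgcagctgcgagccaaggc
Dkk1 (chr19:30549497-30549746, minus strand): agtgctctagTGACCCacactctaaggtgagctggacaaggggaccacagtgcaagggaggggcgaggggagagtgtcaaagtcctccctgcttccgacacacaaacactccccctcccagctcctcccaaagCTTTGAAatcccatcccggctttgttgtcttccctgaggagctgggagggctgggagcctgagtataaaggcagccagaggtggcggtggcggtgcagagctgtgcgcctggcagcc
Fzd10 (chr5:128600856-128601105, plus strand): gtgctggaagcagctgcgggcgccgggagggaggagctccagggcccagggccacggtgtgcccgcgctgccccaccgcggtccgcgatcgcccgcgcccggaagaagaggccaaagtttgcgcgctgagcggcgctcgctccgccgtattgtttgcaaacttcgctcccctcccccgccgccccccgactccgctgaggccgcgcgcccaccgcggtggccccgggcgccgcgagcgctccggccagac
Wnt1 (chr15:98789607-98789856, plus strand): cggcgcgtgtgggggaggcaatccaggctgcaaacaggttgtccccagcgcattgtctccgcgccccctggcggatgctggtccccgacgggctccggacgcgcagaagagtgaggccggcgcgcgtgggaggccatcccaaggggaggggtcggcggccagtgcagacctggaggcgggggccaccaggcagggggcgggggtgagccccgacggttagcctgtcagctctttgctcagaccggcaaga
Axin2 (chr11:108920099-108920348, plus strand): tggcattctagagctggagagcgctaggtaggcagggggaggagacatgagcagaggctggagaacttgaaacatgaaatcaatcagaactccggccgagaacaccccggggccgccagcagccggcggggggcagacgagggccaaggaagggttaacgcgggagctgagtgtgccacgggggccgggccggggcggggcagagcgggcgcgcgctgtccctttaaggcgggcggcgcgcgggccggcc

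The receptor motifs searched were AGGTCA with its variant AGTTCA, and likewise GGGTCA with its variant GGTTCA. The Tcf and Lef motifs were CTTTGAA with the variant CTTTGAT, and all were searched on both strands. Among these 5 stretches only that of Dkk1 held a match: GGGTCA on the opposite strand, its first base 240 bases before the start, and CTTTGAA 117 bases before it. RefSeq promoters were matched for 32 of the 47 genes, 40 promoters in all. A receptor motif was in 42.5% of these and in 38.6% of 32851 promoters of all genes. A Tcf or Lef motif was in 7.5% of these and in 7.48% of all. Direct repeats of the receptor motifs spaced by 5 or by 2 bases were in 0 of the 40, beside 0.0883% and 0.174% of all. A match is a description of these letters and not evidence of binding.

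Other genes of the pathway were read from 4 lists of 78 genes, 77 of them measured. With ATRA late 27 rose and 5 fell (35.1% and 6.49%, beside 17.9% and 19% of all genes), and with BMS753 late 12 rose and 3 fell (15.6% and 3.9%, beside 6.52% and 6.94%). Between the agents 5 were higher and 4 lower with ATRA, 6.49% and 5.19%, near the 4.44% and 5.93% of all genes. Of 23 receptor-level genes, 9 rose and 1 fell with ATRA (39.1% and 4.35%) and 3 rose and 2 fell with BMS753 (13% and 8.7%). Of 27 transduction genes, 12 rose and 1 fell with ATRA (44.4% and 3.7%) and 3 rose and 1 fell with BMS753 (11.1% and 3.7%). Of 11 planar polarity genes, 3 rose with ATRA (27.3%) and 2 with BMS753 (18.2%). Of 16 known targets, 3 rose and 3 fell with ATRA, 18.8% each and near the share of all genes, and 4 rose with BMS753 (25%).

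The largest of these rises with ATRA were in Lgr5, a receptor of R-spondins (2.57 ± 0.62, adjusted p = 0.00426), Draxin (1.67 ± 0.47), Wls, which carries Wnts to the cell surface (1.37 ± 0.15, adjusted p = 1.38e-05), and Dact1 (1.35 ± 0.19). The largest falls were in the cyclin Ccnd1 (−0.93 ± 0.17), Myc (−0.73 ± 0.14), the kinase Tnik (−0.69 ± 0.21) and Tbx6 (−0.28 ± 0.09). The call of Draxin was lost without the 48 h arrays, that of Tnik without the 24 or 48 h arrays, and that of Tbx6 without EtOH replicate 2, 3 or 4 or the 48 h arrays. Between the agents, Tle5 was higher with ATRA by 1.06 ± 0.23 (adjusted p = 0.0124), and Dact2, Pygo1 and Rnf43, a ligase that removes Frizzleds, by 0.33, 0.32 and 0.24. Ror2, a receptor for Wnt5a, was lower by −0.69 ± 0.20 (adjusted p = 0.0435), Ccnd1 by −0.69 ± 0.18, Prickle1 by −0.48 and Rspo1 by −0.38. Each of these 8 differences lost its call with 48 h left out or with only those 2 agents fitted, and all but Dact2 and Ccnd1 with 72 h left out. Dact2 also lost it without EtOH replicate 3 or 4 or 24 h. Rnf43 lost it without EtOH replicate 1, 3 or 4, without the time terms and after quantile normalization. Ror2 lost it without any 1 of the EtOH arrays and after quantile normalization.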

How the data were processed

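Gene expression was measured on 24 Affymetrix Mouse Gene 1.0 ST arrays. The authors deposited log2 intensities for each probe set, made with Affymetrix Expression Console 1.1, per the submitters' processing notes; how they normalized is not given in the sources used, and the log2 scale was judged from the values (2.86 to 14.3). Array medians lay between 6.502 and 6.677, and precision is limited by how many arrays there are. Of 35556 probe sets, 21789 had 1 gene symbol, 1621 several and 12146 none, and the highest-mean probe set was kept for each of 19938 genes.

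limma 3.58.1 in R 4.3.3 (lmFit, eBayes with trend) fitted all 24 arrays at once, with means for EtOH and for every agent and phase, and time terms shared by the 4 agents; residual degrees of freedom were 12 and prior ones 3.1. Tests were two-sided and adjusted by Benjamini-Hochberg over all genes within each of the comparisons. The script was tested on simulated data. Values at each time of ATRA and BMS753 are given for genes called between ATRA and BMS753, called at 2-fold late, or 2-fold from EtOH on any array; of other pathway genes, the 4 largest calls each way were named. The members and lists were chosen with earlier results of these data known. Alternatives dropped the dimmest 33.3% of genes (13293 kept) or used quantile normalization, probe set means, robust moderation, other spreads and groups, no time terms, or one EtOH array or time less. F9 cells were not analysed here.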

Additional observations from a re-analysis of the deposited data

Results flagged for a closer look

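Of the 46 genes, 2 had an EtOH array far from the other 3 by Dixon's criterion. EtOH replicate 1 stood at −0.159 for Wnt9a and at −0.086 for Tcf7l2 on the log2 scale, relative to the EtOH mean. Chance alone gives such a value in about 1 in 20 groups, and neither gene was called in any comparison.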

How the results depend on the processing

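Of 47 calls over the 46 genes, 19 held under every alternative run for them and 0 reversed. Leaving out the dimmest genes left 4 calls untested, of Wnt1 and Frzb, 2 of which are among the 19. The number called with ATRA late was 20 and with BMS753 late 16. The BMS753 count was 26 with only the groups compared, 27 with the EtOH spread alone (31.3% of all genes) and 5 without the 48 h arrays. Among the alternatives, a share of all genes is given only for the EtOH spread alone. The other counts therefore cannot be read as particular to the Wnt genes. Between ATRA and BMS753 late the 10 calls became 0 with only the groups compared, 24 with the EtOH spread alone (35.2% of all genes), 18 without the 24 h arrays, and 4 without the 48 h or without the 72 h arrays. Early with ATRA the 1 call became 9 with only the groups compared, 9 with the EtOH spread alone (7.03% of all genes) and 0 without the 6 h arrays. With only the groups compared or the EtOH spread alone, counts of 0 became 5 and 5 early with BMS753, 2 and 2 between ATRA and BMS753 early, 3 and 3 late with BMS961 and 2 and 2 late with BMS641. The change of the ATRA and BMS753 difference between phases, with 0 calls, gave 18 with the EtOH spread alone (29.7% of all genes) and 13 without the 24 h arrays. The count of 2-fold differences at 24 h, 2, became 1 after quantile normalization. Leaving out EtOH arrays in turn gave 18 to 20 with ATRA late, 13 to 15 with BMS753 late and 9 between them. Leaving out the time terms also ended the calls of Wnt3, Fzd3, Fzd5 and Fzd9 with BMS753, of Wnt10b with ATRA and of Dkk1 between the agents, quantile normalization those of Wnt3 and Fzd9 with BMS753 and Wnt10b with ATRA, and robust moderation that of Wnt8a between the agents; the causes were not tested. The labels give replicate numbers to the EtOH arrays alone, so arrays of the agents could be paired only by time. In the main fit they were matched on time through the shared time terms. With only the late ATRA and BMS753 arrays fitted, these terms pair the 2 agents by time, and 0 of the 10 calls were kept.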
